A study of Arabidopsis thaliana with 24 samples.

Results

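A set of 84 probe sets, of the 22746 on the array that are not controls, had lower values after culture of excised Arabidopsis stem fragments than before it, in the starch sheath and in the remaining stem tissue alike. They were chosen from group means of the measured values. The mean had to be at least 1 log2 unit, a 2-fold difference, below the untreated mean of the same tissue in all 6 cultured groups. No group on medium alone could lie 1 or more below its auxin group of the same day. The 6 falls were met by 95 probe sets, and 10 of them did not meet the condition on auxin. Of the remaining 85, 1 was left out by name, IRX15-L, a gene of xylan synthesis. The falls themselves are therefore given below as descriptions with no test.

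Of the 84 members, 36 are paired with 1 gene in the annotation used, 2 with several genes and 46 with none. The share with no gene was 54.8% among members and 38.4% among all probe sets, so most of the set is known only by its values. Of the 36 named members, 18 are grouped below by what their gene or family does. The other 18 were given no role here, and not all of them are described. Where the annotation gives only a locus code, the family is background knowledge. The rule also leaves out class III peroxidases, and none of the 36 carries the name of one in the annotation. A gene that the rule leaves out could be recognised only through the annotation, so one among the 46 members with no gene or the 2 with several would still be counted. No pair of the 36 lies next to each other in gene order.

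All samples were wild-type Arabidopsis thaliana, measured on Affymetrix ATH1 arrays. After 3 weeks of short days the plants were moved to long days, and stem fragments of 1.5 cm were cultured on split plates of MS, a salt medium, either alone or with NAA, a synthetic auxin, and then captured by laser from 5 µm cryosections of their central 3 mm. In the interfascicular region the groups were starch sheath before culture (T0), starch sheath after 2 d on NAA, starch sheath after 2 d on MS alone, the tissue labelled cambium after 5 d on NAA, and starch sheath after 5 d on MS alone. In the surrounding stem they were stem at T0, after 2 d on NAA and after 5 d on NAA. Each group had 3 arrays, labelled biological replicates, and the number of plants behind each is not given in the sources used. No stem group was cultured on MS alone, so culture without auxin was measured in the starch sheath only. There was likewise no T0 group of cambium, and cambium was set against starch sheath at T0.

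The starch sheath is the innermost layer of the stem cortex, the counterpart of the root endodermis. In stems it is a tissue in which auxin can induce a new cambium between the vascular bundles. Secondary walls of the fibres next to it contain cellulose, xylan and lignin, and xylan must be acetylated by enzymes of the TRICHOME BIREFRINGENCE-LIKE family to fold on cellulose. Microtubules under the plasma membrane guide where cellulose is laid down.

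The cultured arrays were more alike in the members than the untreated arrays were. The median over the 84 members lay between 2.99 and 3.91 log2 units on the 12 cultured starch sheath and cambium arrays, against 7.04, 5.10 and 4.40 in starch sheath T0 replicates 1, 2 and 3. It lay between 3.16 and 3.81 on the 6 cultured stem arrays, against 6.12, 5.75 and 5.23 in stem T0 replicates 1, 2 and 3. Every untreated array therefore had a higher median than every cultured array, and starch sheath T0 replicate 1 stood far above the other two. Replicate 1 was the highest of the 3 starch sheath T0 arrays for 78 members (92.9%), against 33.9% of all probe sets. Since the rule asks for a high starch sheath T0 mean, this share describes the set and is no test of it.

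**Figure D1:**
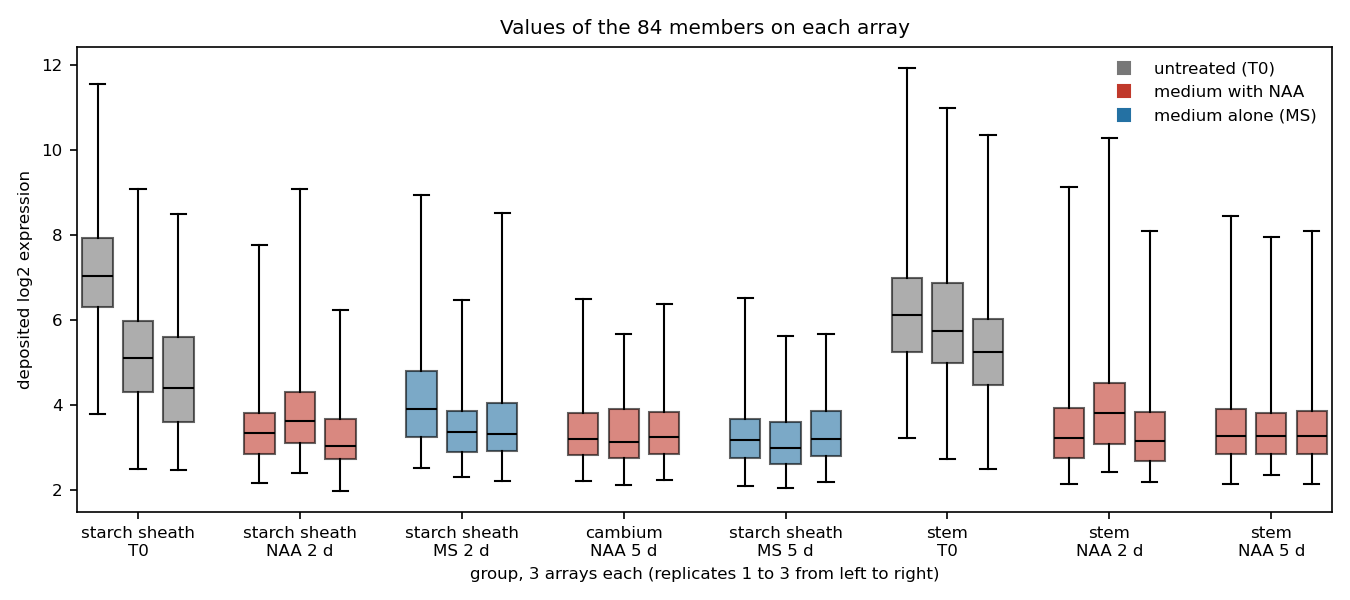
Deposited log2 expression of the 84 members on each of the 24 arrays (vertical axis), by group along the horizontal axis. Boxes span the quartiles, lines mark medians and whiskers reach the lowest and highest member. All cultured medians lie at or below 3.91, under the starch sheath T0 medians of 7.04, 5.10 and 4.40 and the stem T0 medians of 6.12, 5.75 and 5.23.

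Starch sheath T0 replicates 2 and 3 and stem T0 replicate 3 also had a narrower spread over all probe sets, with an SD of 0.955 to 1.08 log2 units against 1.22 to 1.57 on the other 21 arrays. On these 3 arrays 532 to 836 probe sets exceeded 6, against 1233 to 2255 elsewhere. The 3' minus 5' difference of the GAPDH control was 5.52 to 7.43 on cultured arrays and 3.93 to 5.50 on untreated arrays. Such a difference can grow with RNA shortening and with amplification. Here the 5' value was only 2.42 to 2.90 on every array, below the median of all values, 3.09. The difference therefore mostly followed the 3' signal and cannot show whether RNA was shortened, which was not tested. The part of these differences between arrays in the members' falls was not tested. Without starch sheath T0 replicate 1 the rule found 39 probe sets, 35 of them among the 84, and without the 3 narrow arrays it found 243, 79 of them among the 84.

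Set against the highest cultured array of the same tissue, all 84 members were higher on starch sheath T0 replicate 1, 70 on replicate 2 and 46 on replicate 3. Over all probe sets these shares were 11.1%, 23.8% and 28.7%. In stem T0 the counts were 81, 81 and 73 members, against 19.7%, 18.9% and 31.3% of all probe sets. All 3 untreated arrays exceeded all cultured arrays for 44 members in the interfascicular region (1.46% of all probe sets), for 71 in the stem (3.49%) and for 37 in both (0.422%). Since the rule asks for high T0 means, these counts describe the set and are no test of it. In the starch sheath, where 12 cultured arrays set the bound against 6 in the stem, the gap rested mostly on replicate 1.

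**Figure D2:**
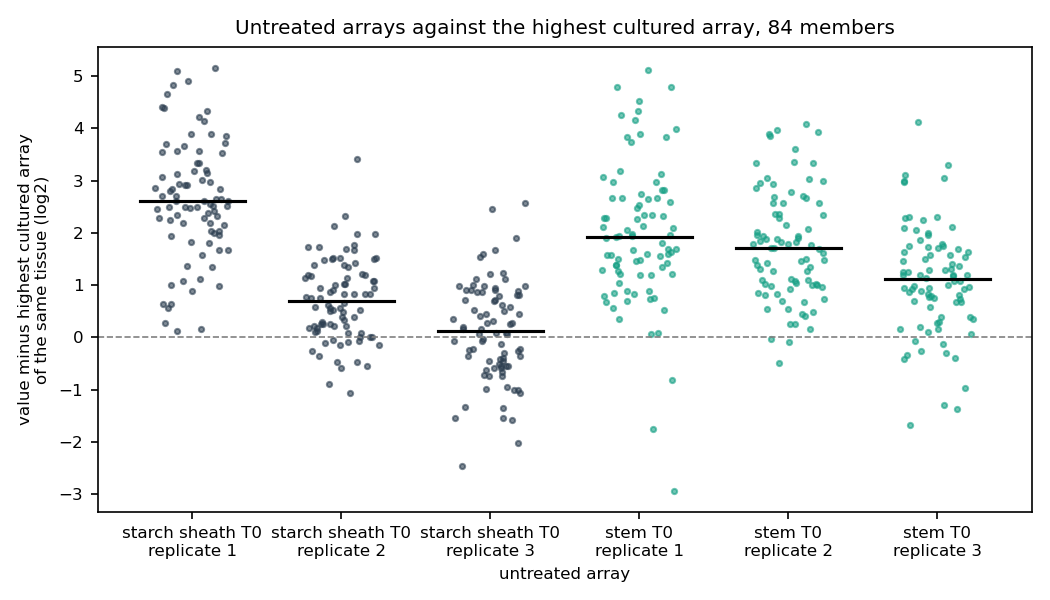
Value of each of the 84 members on each untreated array minus the highest cultured array of the same tissue (log2 units, vertical axis), for the 3 starch sheath T0 and 3 stem T0 arrays (horizontal axis). Points are members, lines are medians and the dashed line is no difference. The median excess is 2.61, 0.70 and 0.13 in starch sheath replicates 1, 2 and 3, and 1.91, 1.71 and 1.11 in stem replicates 1, 2 and 3.

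Fall sizes varied widely among members. In 22 members all 6 falls were 2 or more, and in 4 they were 3 or more. None of these 4 has a gene in the annotation. Their untreated means were 6.43 to 7.31 in starch sheath and 7.08 to 8.20 in stem. Both untreated means exceeded 6 in 26 members. The median of all values was 3.09, and 48 members had at least 1 cultured mean below it, 12 of them all cultured means, so the size of those falls is limited by the low end of the scale.

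Among the genes of the cell wall, TBL38, of the family that acetylates wall polysaccharides, was separated in both tissues. On cultured starch sheath and cambium arrays it lay between 2.68 and 3.28 (median 2.96, 12 arrays), against 7.93, 4.79 and 4.40 in starch sheath T0. In cultured stem it lay between 2.45 and 3.15 (median 2.98, 6 arrays), against 6.98, 5.51 and 5.10 in stem T0. No untreated array overlapped a cultured one in either tissue, and cultured values sat near the median of all probe sets.

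GH9B5, of a family of endo-glucanases that act on wall glucans, was lower on average but overlapped in both tissues. It lay between 2.11 and 3.77 (median 2.31) on the 12 cultured starch sheath and cambium arrays, against 7.29, 4.28 and 2.76 in starch sheath T0. On stem arrays after culture it lay between 2.21 and 3.88 (median 2.43), against 5.26, 6.87 and 3.75 in stem T0. The lowest untreated value of each tissue came from a narrow array, and its smallest fall, 1.88, was 0.63 without starch sheath T0 replicate 1.

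AT1G80170, a pectin lyase-like protein of the polygalacturonase family, which cuts pectin, was the member with the highest untreated level and stayed well above the low end of the scale after culture. In the starch sheath it had 11.56, 9.07 and 8.48 at T0, 8.94, 6.46 and 8.52 after 2 d on MS and 4.86, 5.04 and 4.54 after 5 d on MS. On NAA it had 7.76, 9.07 and 6.23 in starch sheath at 2 d and 6.50, 5.66 and 5.05 in cambium at 5 d. The values at 2 d overlapped those at T0, and the values at 5 d lay below all of them.

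In the stem AT1G80170 had 11.92, 10.97 and 10.36 at T0, 9.13, 10.28 and 8.09 after 2 d on NAA, and 8.44, 7.94 and 8.09 after 5 d on NAA. There the cultured arrays did not reach the untreated ones. Its smallest fall was 1.74, and 0.81 without starch sheath T0 replicate 1.

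A pair of copper proteins was among the 12 named members with the largest smallest fall. AT1G22480, a cupredoxin of the plant plastocyanin-like family, had 2.44 to 7.30 (median 4.28) on cultured starch sheath and cambium arrays, against 9.50, 8.64 and 7.47 in starch sheath T0. For stem after culture, it had 3.57 to 6.21 (median 4.63), against 7.90, 9.17 and 8.51 in stem T0. Its groups did not overlap, although in the starch sheath the highest cultured array came within 0.17 log2 units of the lowest untreated one.

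AT1G31710, a copper amine oxidase, which oxidises polyamines and releases hydrogen peroxide, had 3.33 to 4.62 (median 3.98) on cultured starch sheath and cambium arrays, against 7.13, 5.53 and 5.57 in starch sheath T0. In cultured stem it had 3.20 to 4.05 (median 3.81), against 6.63, 6.20 and 5.68 in stem T0. The separation was clear in both tissues.

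Of the 3 named members tied to the cytoskeleton, AT3G23090, which is WDL3, a microtubule-associated protein of the WAVE-DAMPENED family, had 2.49 to 3.32 (median 2.78) on cultured starch sheath and cambium arrays, against 7.70, 5.09 and 3.58 in starch sheath T0. On stem arrays after culture it had 2.55 to 2.97 (median 2.76), against 6.16, 6.85 and 3.71 in stem T0. Its cultured arrays were alike, and all of its spread lay among the untreated ones, with the narrow replicate 3 lowest in each tissue.

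The other members in this role, iqd21 and AT4G32330, were described after their values were seen, as were all named members outside the 12 with the largest smallest fall and the 3 nearest the threshold. The first is of the IQ-domain family that binds calmodulin, and AT4G32330 is of the TPX2 family of microtubule proteins. iqd21 had 2.38 to 2.91 (median 2.65) on cultured starch sheath and cambium arrays, against 7.04, 3.16 and 2.97 in starch sheath T0. In cultured stem it had 2.31 to 2.75 (median 2.58), against 4.05 to 4.25 in stem T0, where its 3 untreated arrays were close together. AT4G32330 had 3.10 to 4.32 (median 3.84) on cultured starch sheath and cambium arrays, against 6.60, 5.34 and 3.60 in starch sheath T0, where the third value lay inside the cultured range.

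In the 4 named members of turnover and metabolism the smallest of the 6 falls was between 1.04 and 1.33. ATG8H, a ubiquitin-like protein of autophagosome membranes, had 2.54 to 3.32 (median 2.98) on cultured starch sheath and cambium arrays, against 5.96, 3.94 and 3.47 in starch sheath T0. On stem arrays after culture it had 2.60 to 4.50 (median 2.84), against 5.22, 5.45 and 3.21 in stem T0, and there the groups overlapped.

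AT2G26800, a hydroxymethylglutaryl-CoA lyase of leucine breakdown, had 4.51 to 7.25 (median 5.60) on cultured starch sheath and cambium arrays, against 9.24, 7.09 and 6.89 in starch sheath T0. For stem after culture, it had 5.36 to 6.01 (median 5.61), against 7.83, 7.84 and 6.94 in stem T0. Both sets of cultured arrays stayed above 4.5, so this fall was measured away from the low end. The aspartyl protease family member AT2G03200 had 2.36 to 6.16 (median 2.76) on cultured starch sheath and cambium arrays, against 6.81, 5.10 and 3.70 in starch sheath T0. Its high cultured value came from 1 array, MS 2 d replicate 1, with the other 11 at or below 3.39.

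A further 4 named members belong to families that are named for senescence, desiccation or defence: AT4G35985, AT3G15040, AT3G62730 and the thaumatin-like AT1G20030. Their smallest falls were 1.07 to 1.52. AT4G35985 had 2.96 to 4.45 (median 3.51) on cultured starch sheath and cambium arrays, against 6.78, 5.65 and 5.98 in starch sheath T0. In cultured stem it had 3.14 to 3.66 (median 3.38), against 5.24, 5.38 and 4.36 in stem T0.

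A receptor-like cytoplasmic kinase, AT5G65530, and a MYB-domain protein, AT2G38090, had smallest falls of 1.23 and 1.24. AT5G65530 had 2.48 to 3.17 (median 2.91) on cultured starch sheath and cambium arrays, against 5.20, 3.47 and 3.89 in starch sheath T0. AT2G38090 had 2.99 to 3.50 (median 3.26) on the same cultured arrays, against 5.99, 4.32 and 3.43 in starch sheath T0. On these arrays the kinase gene was separated without overlap and the MYB gene was not. In the stem both were separated without overlap.

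Of the named members given no role here, AT5G06930 had the largest smallest fall of all 36, at 2.88. It had 3.24 to 4.38 (median 3.80) on cultured starch sheath and cambium arrays, against 8.80, 6.35 and 5.99 in starch sheath T0. On stem arrays after culture it had 3.59 to 5.45 (median 3.96), against 7.38, 7.14 and 7.55 in stem T0. The gap held on every untreated array, and its smallest fall was still 2.00 without starch sheath T0 replicate 1.

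AT1G47410 was, of the 12 named members with the largest smallest fall, the one whose falls depended least on single arrays. It had 3.46 to 4.89 (median 4.15) on cultured starch sheath and cambium arrays, against 7.50, 6.40 and 6.55 in starch sheath T0. For stem after culture, it had 3.05 to 4.72 (median 4.38), against 6.41, 6.73 and 6.59 in stem T0. Its smallest fall of 2.12 was 2.04 at the lowest when each array was left out in turn.

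AT5G43150 had 2.71 to 3.55 (median 2.99) on cultured starch sheath and cambium arrays, against 5.94, 4.42 and 4.42 in starch sheath T0, with no overlap in either tissue. AT3G54040, of the PAR1 family, had 3.20 to 4.01 (median 3.44) on the same cultured arrays, against 7.57, 5.52 and 3.71 in starch sheath T0. The third untreated value of AT3G54040 lay inside its cultured range, and its smallest fall of 1.78 was 0.80 without starch sheath T0 replicate 1. In cultured stem AT3G54040 reached 4.23 at most, against 5.71, 5.85 and 5.43 in stem T0.

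AT3G22540 kept high values in the stem at 2 d on 2 of 3 arrays. It had 6.55, 6.88 and 7.67 in stem T0, 6.46, 6.18 and 3.88 after 2 d on NAA, and 3.79, 3.14 and 3.50 after 5 d on NAA. On cultured starch sheath and cambium arrays it had 2.74 to 3.90 (median 3.24), against 6.73, 4.72 and 4.77 in starch sheath T0. Its smallest fall of 1.52 was 0.71 without stem NAA 2 d replicate 3.

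**Figure D3:**
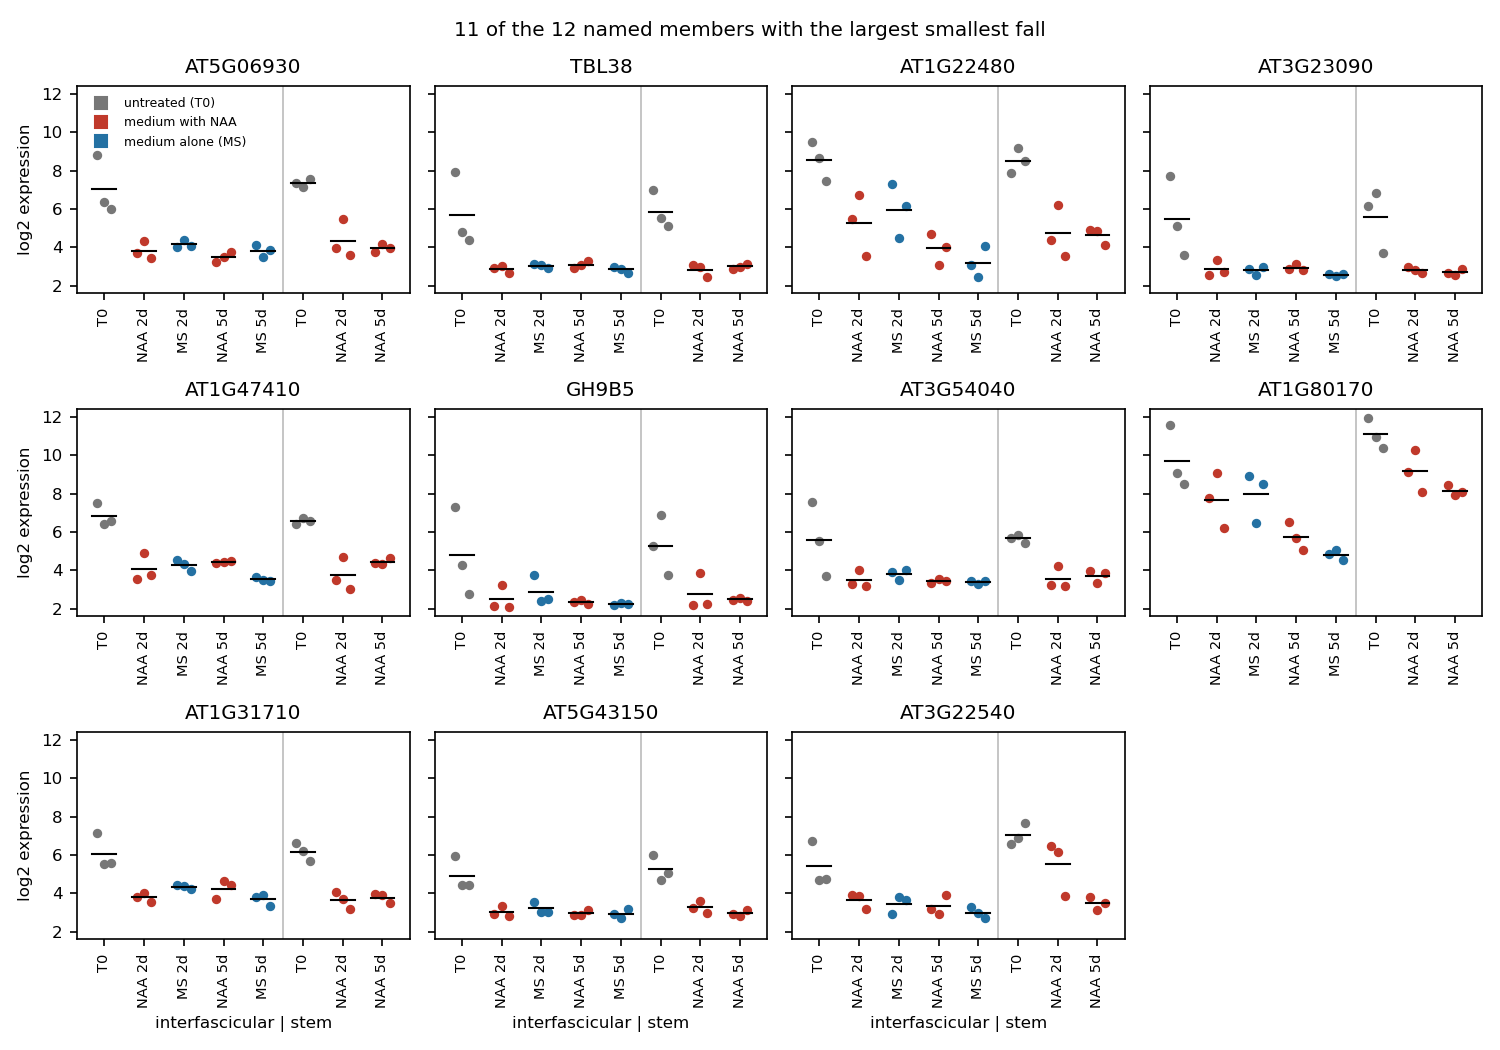
Deposited log2 expression (vertical axes) of 11 of the 12 named members with the largest smallest fall, in the 5 interfascicular groups and, right of the grey line, the 3 stem groups. Points are arrays and bars are group means (n = 3). Starch sheath T0 replicate 1 is the highest point of its group in every panel, and their smallest falls lie between 1.52 and 2.88.

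At the edge of the rule the smallest falls formed a continuum. Just inside were AT2G41610 with 1.00, AT3G06130, a protein with a heavy-metal-associated domain, with 1.02, and AT2G32150, a haloacid dehalogenase-like hydrolase, with 1.04. Just outside were AT5G39880 with 0.996, AT2G40480 with 0.973 and AT1G73750 with 0.946. Among the genes inside, AT3G06130 had no overlap in either tissue, with 4.55 to 6.38 (median 5.33) on cultured starch sheath and cambium arrays, against 6.50, 7.20 and 6.99 in starch sheath T0. It was an exception to the order of the untreated arrays, with replicate 1 the lowest. A bound of 1.5 in place of 1 kept 42 of the 84 members.

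AT5G44680, of the DNA glycosylase family, met the rule through 1 array per tissue. It had 2.19 to 2.53 (median 2.39) on cultured starch sheath and cambium arrays, against 6.24, 2.48 and 2.46 in starch sheath T0. In cultured stem it had 2.34 to 2.58 (median 2.44), against 6.57, 2.73 and 2.50 in stem T0. In each tissue replicate 1 alone was high, and the remaining untreated values were at or near the cultured ones.

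Tests of members in the next paragraphs are of differences that the rule did not fix, although they use arrays that the rule used. They were made with limma over all 22746 probe sets with Benjamini-Hochberg adjustment. The falls from T0 in the paragraph that follows were set by the rule and are only described. A call means an adjusted p under 0.05. The SE of a member's difference between 2 groups had a median of 0.54 log2 units (0.25 to 1.26), so differences under about 1 were mostly within the spread between arrays.

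As a description only, most of the members' fall at 5 d was present at 2 d. The rule asked for a fall of at least 1 at both times, so a gene that fell only later could not be a member. In the 48 members with a cultured mean below the median of all values, little room was left for a further fall. The shares are therefore no test of timing. Of the fall seen at 5 d, the median member had 98.3% at 2 d in the stem on NAA, 97.9% in the interfascicular region on NAA and 82.9% in the starch sheath on MS. The median fall was 2.07 at 2 d and 2.26 at 5 d in the stem, 2.05 and 2.12 in the interfascicular region on NAA, and 1.72 and 2.12 on MS. Means at 5 d lay within 0.5 of those at 2 d for 63 members in the stem, 69 in the interfascicular region on NAA and 47 on MS.

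Between 5 d and 2 d on NAA in the stem, no member was called by limma, against 0.857% of all probe sets, and 4 had an unadjusted p under 0.05, against 8.73% of all. The largest named difference was that of AT3G22540, -2.03 ± 0.57 (SE, n = 3 each, limma adjusted p = 0.133). The member median was -0.04, beside 0.03 for all probe sets.

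Between cambium at 5 d and starch sheath at 2 d, both on NAA, 1 member was called, lower in cambium, against 2.02% of all probe sets, and 2 had an unadjusted p under 0.05, against 11.7% of all. The probe set 264901_at, unnamed in the annotation, had 4.52, 2.95 and 3.32 in cambium at 5 d, against 5.87, 5.99 and 5.41 in starch sheath at 2 d. Its difference was -2.17 ± 0.46 (SE, n = 3 each, limma adjusted p = 0.0175), with no overlap. Before culture it had 6.52, 7.19 and 6.65, and on MS 6.24, 5.31 and 4.90 at 2 d and 4.47, 4.77 and 5.09 at 5 d. With only these 2 groups in the fit its adjusted p was 0.114, and leaving out 1 array at a time gave 0.00529 to 0.104, with the call lost in 4 of 24 fits.

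Between 5 d and 2 d on MS in the starch sheath, no member was called by limma (0.303% of all probe sets called), while 11 had an unadjusted p under 0.05, or 13.1% against 8.19% of all probe sets. The difference was below 0 for 71 of the 84 members, with a median of -0.35 beside -0.02 for all probe sets. AT1G80170 had the largest, -3.16 ± 0.80 (SE, n = 3 each, limma adjusted p = 0.117), and AT1G22480 had -2.78 ± 0.82 (limma adjusted p = 0.198). AT1G22480 had 3.07, 2.44 and 4.07 at 5 d on MS, against 7.30, 4.48 and 6.13 at 2 d on MS, with no overlap. In the opposite direction AT2G32150 had 3.95, 4.95 and 4.48 at 5 d on MS, against 2.55, 2.91 and 3.06 at 2 d on MS, again with no overlap, and a difference of 1.62 ± 0.67 (limma adjusted p = 0.496).

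NAA was set against MS in the same tissue to ask whether auxin altered the falls. The rule barred MS means 1 or more below NAA means, and it asked for a fall of at least 1 on both media. A gene that fell only with auxin or only without it could not be a member. A lack of calls is therefore favoured by the rule, at 2 d and at 5 d, and does not show that auxin had no part. The bar also favours differences below 0. At 2 d in the starch sheath no member was called by limma, against 0.382% of all probe sets, and 2 had an unadjusted p under 0.05, against 10.1% of all. The difference was below 0 for 62 of 84 members, with a median of -0.21 beside -0.06 for all probe sets. The largest was that of AT2G26800, which had 5.57, 5.40 and 4.51 on NAA, against 7.25, 6.35 and 6.26 on MS, with no overlap and a difference of -1.46 ± 0.47 (SE, n = 3 each, limma adjusted p = 0.234).

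At 5 d, cambium on NAA was set against starch sheath on MS. No member was called by limma, against 3.49% of all probe sets, and 5 had an unadjusted p under 0.05, against 13.0% of all. The member median was 0.11, beside 0.01 for all probe sets. A difference under about 1 cannot be read as absence, given the SE above.

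Starch sheath was set against stem before culture and at each time on NAA to ask whether the set differed between tissues. At T0, 1 member was called, lower in starch sheath, against 0.202% of all probe sets called, and 9 members had an unadjusted p under 0.05, against 13.8% of all. The unnamed probe set 246380_at had 5.06, 2.88 and 2.94 in starch sheath T0, against 7.76, 6.58 and 4.92 in stem T0. Its difference was -2.79 ± 0.52 (SE, n = 3 each, limma adjusted p = 0.0316), and starch sheath replicate 1 lay above the lowest stem array. After culture it had 2.32 to 2.86 in starch sheath and cambium and 2.35 to 2.64 in stem. With only these 2 groups in the fit its adjusted p was 0.934, and the call was lost in 8 of the 24 fits that left out 1 array (adjusted p 0.000255 to 0.177).

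The T0 comparison depended on which untreated arrays were used, to the point of direction. Without starch sheath T0 replicate 1, 22 members were called by limma, all 22 lower in starch sheath, against 17.3% of all probe sets called. Without the 3 narrow arrays, which leaves 1 starch sheath and 2 stem arrays, 16 were called, 15 higher and 1 lower, against 0.655% of all probe sets. In that fit the lone starch sheath array is assumed to vary like the other groups. It is replicate 1, the highest starch sheath T0 array for 78 members, and the rule asks for a high starch sheath T0 mean. The direction of calls in both fits is therefore tied to the choice of members and is no test of them. The median over members was -0.09 in the fit with all arrays, beside 0.04 for all probe sets. Among named genes in that fit, AT4G35985 had a difference of 1.15 ± 0.35 (limma adjusted p = 0.202), and AT3G22540 one of -1.62 ± 0.57 (limma adjusted p = 0.251), neither past the threshold.

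After culture on NAA no member was called between the tissues. The rule asked for a fall of at least 1 in both tissues, so a gene that kept its untreated level in 1 of them could not be a member. A lack of calls here is therefore favoured by the rule and does not show that the tissues were alike. At 2 d, starch sheath minus stem gave no call by limma (0.246% of all probe sets) and 3 members with an unadjusted p under 0.05 (4.51% of all), with a member median of 0.01 beside 0.00 for all probe sets. At 5 d, cambium minus stem gave no call by limma (0.356% of all) and 3 members with an unadjusted p under 0.05 (5.28% of all), with a member median of -0.06. AT1G80170 had the most negative difference at 5 d, with 6.50, 5.66 and 5.05 in cambium, against 8.44, 7.94 and 8.09 in stem, a difference of -2.42 ± 0.80 (SE, n = 3 each, limma adjusted p = 0.414). Its arrays did not overlap between the tissues, and it did not pass the threshold over all probe sets.

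**Figure D4:**
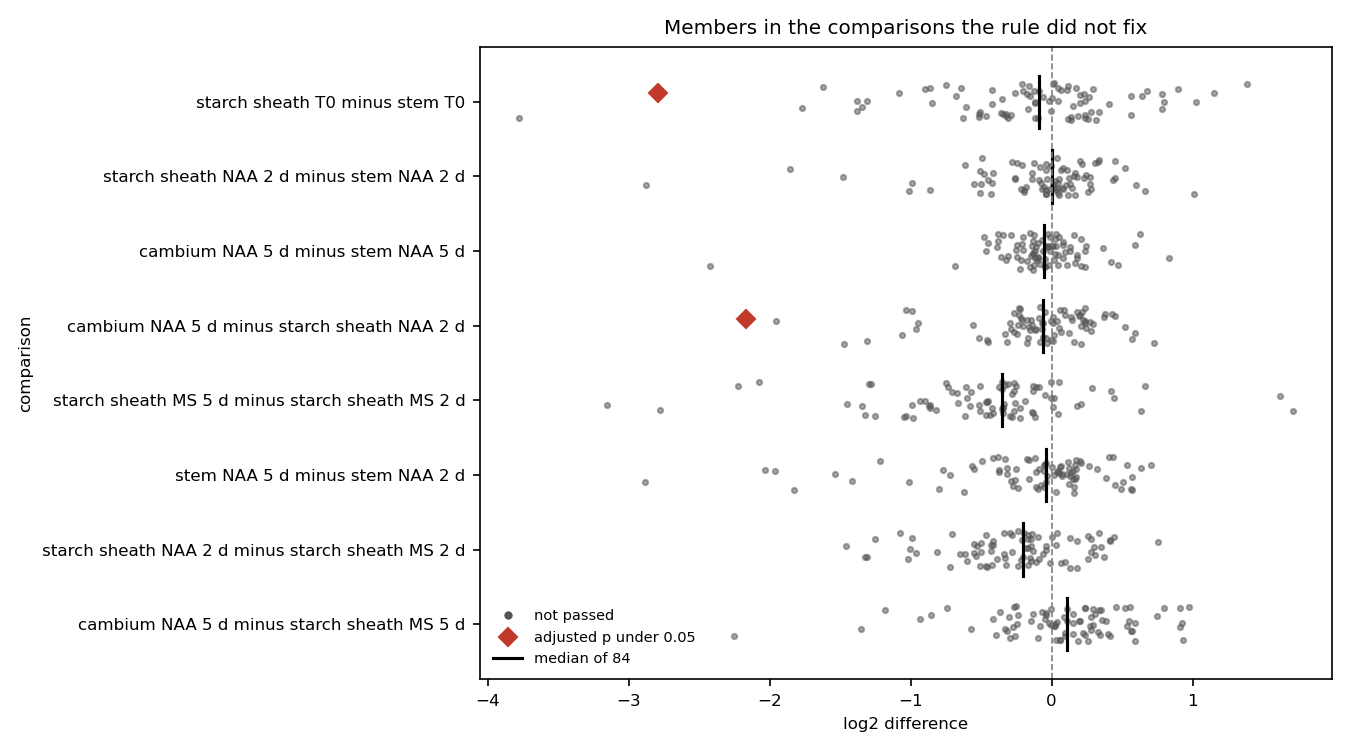
Log2 difference of each of the 84 members (horizontal axis) in 8 comparisons the rule did not fix (vertical axis), each with the first-named group minus the second. Points are members, vertical bars are medians and diamonds mark the 2 members called by limma. The medians lie between -0.35, for MS 5 d minus MS 2 d, and 0.11, for cambium NAA 5 d minus starch sheath MS 5 d.

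Whether the change from T0 to NAA differed between tissues was tested as an interaction. The rule asked for a fall of at least 1 in both tissues, so a gene that fell in only 1 of them could not be a member. A lack of calls is therefore favoured by the rule and does not show that the tissues fell alike. No member was called by limma at 2 d (0.00879% of all probe sets called) or at 5 d (0.0308%), and 3 and 6 members had an unadjusted p under 0.05, against 6.16% and 9.08% of all. Without starch sheath T0 replicate 1, 5 members were called at 2 d (2.62% of all probe sets) and 8 at 5 d (4.84%), all with the smaller fall in the interfascicular region. Without the 3 narrow arrays 11 were called at each time (0.308% and 0.431%), 10 of each with the larger fall in the interfascicular region. The sign of the interaction thus turned with the untreated arrays, as in the T0 comparison itself. That sign is likewise no test of the members.

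No gene of 16 pathway lists, drawn up for the tissue and for excision and culture, was among the 36 named members, and the 46 members with no gene and the 2 with several could not be matched to the lists. Of 362 list entries 43 genes were measured by a probe set with 1 gene, in 12 of the lists. The lists for secondary wall cellulose, arabinogalactan proteins, aquaporins and auxin transport had no gene that could be matched in this way. Most genes of those pathways could thus not be matched to a probe set through the annotation used. They may be measured by probe sets with no gene, also among the 46 members. Their absence from the named members says nothing of them.

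The list for xylan synthesis had 4 measured genes, IRX15, IRX15-L, GUT2 and GUT1. IRX15-L, which met the other conditions, was left out of the set by name. The remaining 3 did not meet the rule, with IRX15 at -0.89 in stem after 5 d on NAA and GUT2 at -0.97 in starch sheath after 2 d on MS, each relative to T0 of its tissue. Relative to starch sheath T0, 1 gene was called lower after 2 d on MS (0.967% of all probe sets called lower), 3 after 2 d on NAA (4.28%), 3 after 5 d on MS (2.02%) and 3 in cambium after 5 d on NAA (2.58%). Relative to stem T0, 1 was called lower at 2 d (1.05%) and 0 by limma at 5 d (1.63%), where 3 had an unadjusted p under 0.05.

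IRX15, needed for xylan chains of normal length, averaged 2.87 ± 0.31 in starch sheath after 2 d on NAA, against 5.05 ± 0.93 in starch sheath T0 (SD, n = 3 each, limma adjusted p = 0.000599). GUT2, a glycosyltransferase of the xylan backbone, averaged 3.13 ± 0.33 in stem after 2 d on NAA, against 4.74 ± 0.16 in stem T0 (SD, n = 3 each, limma adjusted p = 0.0335). GUT1, a second such glycosyltransferase, averaged 5.21 ± 0.47 in cambium after 5 d on NAA, against 4.88 ± 0.35 in starch sheath T0 (SD, n = 3 each, limma adjusted p = 0.42).

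Of the nuclear photosynthesis genes, 10 were measured. Relative to stem T0, 5 were called lower after 5 d on NAA, against 1.63% of all probe sets. Among them was PSAN, a photosystem I subunit, with -2.72 ± 0.52 (SE, n = 3 each, limma adjusted p = 0.00452). After 2 d 0 were called by limma (1.05% of all probe sets called lower), with 3 at an unadjusted p under 0.05. Relative to starch sheath T0, 2 were called higher after 2 d on NAA, while after 5 d on MS 1 was called higher and 1 lower.

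The other lists held few measured genes and few calls against T0. Over all probe sets, 0.967% to 4.28% were called lower in the 6 comparisons with T0, and 495 to 1699 of 22746 were called higher. Of 9 expansins and xyloglucan enzymes, 1 was called lower, XTH32, a xyloglucan endotransglucosylase family member, in stem after 5 d on NAA, with -2.71 ± 0.66 (SE, n = 3 each, limma adjusted p = 0.0255). The 3 measured genes of aliphatic glucosinolate synthesis gave 6 calls over the 6 comparisons, all lower, from AOP3 and BCAT4. BCAT4 was called only on NAA. On MS alone its difference from starch sheath T0 was 0.78 at 2 d and 1.71 at 5 d, neither called. AOP3 lay at the low end of the scale, with means of 3.24 in starch sheath T0 and 2.38 after 2 d on NAA. The cold and drought list, with 4 genes, gave 2 lower calls, both of COR15B, which also lay at the low end of the scale. Its means were 3.69 in starch sheath T0, 2.87 after 5 d on MS and 3.01 in cambium after 5 d on NAA. The clock gene GI was called lower in cambium. Of 2 genes of nitrate and sulfate assimilation, SIR, the sulfite reductase, was called higher in 3 comparisons and APS3, an ATP sulfurylase, lower in 1. The lists for flavonoids, gibberellin and brassinosteroid, jasmonate and wounding, lignin, and wax and cutin gave no call by limma, with 3, 6, 0, 0 and 1 results at an unadjusted p under 0.05.

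Markers of cell types were thinly covered, with 1 of 9 starch sheath markers, 3 of 9 for phloem, 1 of 9 for cambium, 1 of 8 for chlorenchyma and none for xylem, fibre or epidermis measured by a probe set with 1 gene. JKD, a zinc finger gene of ground tissue, averaged 3.98 ± 0.68 in starch sheath T0, against 2.98 ± 0.16 in stem T0 (SD, n = 3 each), and this difference was not called. Relative to starch sheath T0, JKD was called lower after 2 d on NAA, in cambium after 5 d on NAA and after 5 d on MS. Its means there, 3.05, 3.09 and 2.83, lay at the low end of the scale. PHV, an HD-ZIP III gene used as cambium marker, averaged 6.80 ± 1.02 in cambium after 5 d on NAA, against 4.08 ± 0.13 in starch sheath T0 (SD, n = 3 each, limma adjusted p = 0.000585). It was also called higher in starch sheath after 2 d on NAA. On MS its difference from starch sheath T0 was 0.95 at 2 d and 1.09 at 5 d, neither called. In stem on NAA its difference from stem T0 was 1.32 at 2 d and 1.14 at 5 d, neither called. At 5 d cambium was called higher than starch sheath on MS, by 1.63, but not higher than stem, with 0.43.

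Some markers of other cell types were called in the stem as well. CLE41, a phloem peptide gene, was called lower after 2 d on NAA, with -1.50 ± 0.39 relative to stem T0 (SE, n = 3 each, limma adjusted p = 0.0412). CLE44, another gene of that peptide, was called higher after 5 d on NAA, with 2.52 ± 0.64 (SE, n = 3 each, limma adjusted p = 0.032). At the other time neither was called, with 0.35 for CLE41 at 5 d and -0.375 for CLE44 at 2 d. SWEET11, the remaining measured phloem marker, was not called in the stem, with -0.34 at 2 d and -0.13 at 5 d. RCA, the Rubisco activase gene used as chlorenchyma marker, was called lower after 5 d on NAA, with -1.93 ± 0.39 (SE, n = 3 each, limma adjusted p = 0.00694). In these captured tissues, fewer cells of a type and less RNA per cell cannot be told apart, and the part of cell composition in the members' falls was not tested.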

How the data were processed

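Gene expression was measured on 24 single-colour arrays, 3 in each of 8 groups, after laser capture and RNA amplification in a pair of rounds. The log2 values come from the one table of the whole series that the authors deposited. RMA and limma are named, with no version, per the submitters' processing notes. The values range from 1.73 to 14.67 and were taken as log2, the scale RMA gives, since the table does not write the base. Genes were named from the platform annotation and TAIR10.1 symbols. The 64 control probe sets were left out and 22746 kept. A probe set paired with several genes was not named.

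The members follow from group means, as described above. The members, gene lists and tests were chosen with earlier results of these data known. Named genes were the 12 single-gene members with the largest smallest fall, the 3 on each side of the threshold and members called in a tested comparison. The values of 1 of these 12 are not reported here. Any other member described was chosen after its values were seen, and those not described are counted only.

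Tests used limma 3.58.1 in R 4.3.3, with 1 mean per group over all 24 arrays (prior degrees of freedom 2.55, residual 16), two-sided, with Benjamini-Hochberg adjustment over 22746 probe sets and a threshold of 0.05. The method was tested on simulated data. Alternatives were the fall threshold, group medians, cyclic loess, array weights, a filter on dim probe sets, only the groups compared, a replicate block, leaving out each array, and leaving out the 3 narrow arrays. Replicate numbers were checked as pairs in 14 comparisons: all 3 correlations of same-numbered arrays exceeded 0.1 only between starch sheath and stem after 2 d on NAA (0.126 to 0.507), and no label names a shared plant or day. The number of arrays limits the precision, and p-values measure the spread between these arrays. Sequences and coordinates were not used here.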

Additional observations from a re-analysis of the deposited data

Results flagged for a closer look

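The effect of NAA against MS ran in opposite directions at the 2 times for 2 members, with all 3 arrays of NAA below all 3 of MS at 2 d and above them at 5 d. These members were found by searching 3 pairs of comparisons in every member for such opposite changes. The share of all probe sets with this pattern was not counted, so whether 2 members exceed chance was not tested. The difference between the times was not tested either. AT5G62580, which encodes an armadillo-repeat protein, averaged 3.80 on NAA at 2 d, against 4.79, 4.03 and 4.07 on MS, a difference of -0.50. At 5 d it had a mean of 4.03 in cambium on NAA against 3.69 in starch sheath on MS, a difference of 0.34. Neither difference was called (limma adjusted p = 0.703 and 0.875). An unnamed probe set had differences of -0.62 at 2 d and 0.57 at 5 d. At 5 d the comparison also sets cambium against starch sheath, so auxin and the labelled tissue cannot be told apart.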

How the results depend on the processing

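The number of members was 62 with group medians (56 of the 84 shared), 126 with cyclic loess (83 shared) and 112 with a fall threshold of 0.8, and moved to 42 at a threshold of 1.5 and 243 without the 3 narrow arrays. Leaving out each array gave 39 (without starch sheath T0 replicate 1) to 117 (without replicate 3).

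Members called at T0 between starch sheath and stem were 21 with array weights, 0 with only the compared groups, 16 without the narrow arrays, and 0 to 22 leaving out single arrays. For the interactions they were 3 (2 d) and 11 (5 d) with array weights, 11 and 11 without the narrow arrays, and 0 to 5 and 0 to 8 leaving out single arrays. With array weights they were 5 for cambium against MS at 5 d, 2 for cambium against starch sheath NAA 2 d, 2 for MS 5 d against 2 d, 1 for NAA against MS at 2 d, 2 for starch sheath against stem at 2 d, and 4 for stem 5 d against 2 d. Without the narrow arrays the same comparisons, leaving out starch sheath against stem at 2 d, gave 1, 2, 1, 1 and 3. Cyclic loess gave 1 for MS 5 d against 2 d and 1 for NAA against MS at 2 d. Only the compared groups gave 2 for cambium against MS and 1 for stem 5 d against 2 d. Leaving out single arrays gave 0 to 1 in these comparisons, and 0 throughout for MS 5 d against 2 d and cambium against stem. The estimate of array weights stopped before it converged. A filter on dim probe sets moved no count of members called. The cause of these shifts was not tested. The files hold no detection calls, so a low cultured value cannot be told from background.

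Listed genes called with cyclic loess were 7 for MS 2 d, 15 for cambium, 9 for stem 2 d and 12 for stem 5 d, against 2, 7, 3 and 7, and without the narrow arrays 6, 15, 8 and 16. Single arrays left out gave 1 to 7 for MS 2 d, 6 to 16 for NAA 2 d, 5 to 14 for MS 5 d, 2 to 9 for cambium, 1 to 6 for stem 2 d and 3 to 13 for stem 5 d. With the replicate number as a block no count of members called changed, and 246380_at and 264901_at kept their calls (limma adjusted p = 0.0209 and 0.0231). No result reversed under these alternatives, apart from the direction of calls at T0 and in the interactions given above.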
